A study of Rattus norvegicus with 23 samples.

Results

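Cytosolic ribosomal proteins were followed in CA3 of young and aged rats through every probe set whose single gene symbol on the array was that of a ribosomal protein, beginning Rpl or Rps with a number, Rplp0 to Rplp2 or Rpsa, without the S6 kinases. This gave 57 probe sets of 50 genes among 31042 probe sets. RNA of the microdissected hippocampal field CA3 had been hybridised to Affymetrix Rat Genome 230 2.0 arrays, 1 array per animal, from 23 male Long-Evans rats that received no treatment. The young rats were 6 months old (n = 9). The aged rats were 24 to 26 months old and were divided by a learning index from the Morris water maze, a test of finding a platform hidden under water from memory of its place. In aged unimpaired rats the index was no worse than in the young (n = 6), and in aged impaired rats it was outside the range of young scores (n = 8). The design asked which transcripts differ with age and which differ with the loss of spatial learning. No females and no other strain were included, and the aged groups rest on the maze score alone.

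The cytosolic ribosome joins a small subunit, which reads the messenger RNA, to a large subunit, which forms the peptide bonds. Each subunit is built in the nucleolus from ribosomal RNA and about one copy of each protein, so the proteins are needed in equal numbers. Their messenger RNAs commonly begin with a cytosine followed by a run of pyrimidines, the terminal oligopyrimidine tract, through which the kinase mTORC1 and the protein Larp1 set how actively they are translated. In neurons ribosomes also sit in dendrites, where local protein synthesis is linked to lasting synaptic change.

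The start regions of 9 members are shown so that they can be set against the tract that the family is known for. They are the called members Rpl12, Rpl5, Rps24 and Rpl7l1, and Rpl22, Rps15, Rpl35, Rplp0 and Rps6, which were not called. Each runs 5′ to 3′ from 30 bases before to 20 bases after the RefSeq start of the gene in build GRCr8. Capitals mark the longest unbroken run of C and T that touches the 20 bases on each side of the start.
Rpl12 (chr3:36661910-36661959, plus strand): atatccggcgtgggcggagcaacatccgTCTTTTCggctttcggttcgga
Rpl5 (chr14:1995206-1995255, minus strand): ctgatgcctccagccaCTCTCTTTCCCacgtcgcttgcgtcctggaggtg
Rps24 (chr16:96487-96536, plus strand): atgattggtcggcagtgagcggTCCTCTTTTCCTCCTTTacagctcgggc
Rpl22 (chr5:168117931-168117980, plus strand): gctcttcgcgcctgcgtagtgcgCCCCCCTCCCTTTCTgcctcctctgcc
Rps15 (chr7:10068096-10068145, minus strand): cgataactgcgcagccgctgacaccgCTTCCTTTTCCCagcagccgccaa
Rpl35 (chr3:43165902-43165951, minus strand): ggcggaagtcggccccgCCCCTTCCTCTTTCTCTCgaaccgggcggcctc
Rplp0 (chr12:46718371-46718420, minus strand): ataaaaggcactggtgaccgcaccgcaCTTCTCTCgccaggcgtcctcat
Rps6 (chr5:106420521-106420570, minus strand): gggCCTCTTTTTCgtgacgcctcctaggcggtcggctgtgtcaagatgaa
Rpl7l1 (chr9:21695688-21695737, plus strand): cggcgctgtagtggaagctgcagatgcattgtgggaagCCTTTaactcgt

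A promoter sequence was found in RefSeq for 41 of the 50 member genes, of which 35 encode proteins of the small or large subunit. A terminal oligopyrimidine start, counted as C at the start and C or T at each of the next 4 bases, was present in 11 of these 35 (31.4%), against 2.63% of all 33469 promoters in the table. A run of C and T of at least 8 bases touched the 20 bases on each side of the start in 26 of 35 (74.3%), against 21.0% of all promoters, and the median longest run was 11 bases against 5. CTTTC on the sense strand in that window occurred in 51.4% of the 35 and 4.97% of all promoters, and the longer TTCCTTT, which overlaps the same runs, in 22.9% and 0.65%. Over the 300 bases of a promoter and both strands, CGGAAG was found in 48.6% against 16.6%, AAGATGG in 22.9% against 7.01%, GGGCGG in 65.7% against 33.1%, and TATAAA in 11.4% against 14.2%. These are matches of letters around an annotated start, which was not measured here.

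Among the sequences shown, Rpl22, Rps15, Rpl35 and Rplp0 begin on a C inside the marked run. Rpl12 and Rps24 have T as the annotated first base, inside the marked run. Rpl5 also has T as its annotated first base, and its marked run ends before the start. The run of Rps6 lies well before its annotated start. The paralogue Rpl7l1 has a run of only 5 bases, and 0 of the 6 member genes outside the subunits had a terminal oligopyrimidine start.

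The deposited values are log2 expression values, and the 46 probe sets of 41 genes with a value of 4 or more on 6 or more arrays were tested. The tested members were bright. Their median level was 12.03, against 7.62 for all 14647 tested probe sets, and 36 of the 46 had a mean of at least 11, a level reached by 5.84% of all tested probe sets. Rps29 of the small subunit had a mean of 13.87, Rpl13a 13.25 and Rpl3, a protein close to the peptidyl transferase centre, 13.19. Brightness also depends on the probes, so these values give no order of transcripts. Expression was close among animals of a group, with a within-group SD of 0.06 to 0.25 and a median of 0.10, against a median of 0.14 for all tested probe sets. Other bright probe sets were no wider. The standard error (SE) of the aged impaired minus young difference had a median of 0.048 in members. It was 0.043 in 790 other probe sets with a mean of at least 11, and 0.065 in all tested.

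The 11 members left out of the tests lay near the floor of the scale. They included Rps27l, a p53-inducible paralogue of Rps27, at a mean of 2.58, Rpl3l, the striated muscle paralogue of Rpl3, at 2.19, and Rps4y2, Rpl39l1, Rps13 and Rpl30, each also at 2.19. Rpl26l1 and Rpl28 lay at 2.37 and 2.22, and the pseudogene Rps4x-ps1 beside them. A floor value does not show that the gene is off. A probe set of Rpl14 lay at 2.19 and its other at 11.40, and Rps24 likewise had a probe set near the floor and one at 12.69.

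The labelled tissue was checked on marker genes, which gave neuronal markers at means up to 13.66 and markers of CA3 pyramidal cells up to 12.21, although Coch of the CA3 list lay near the floor at 2.58. Microglial markers were higher in the aged animals. In aged impaired against young, 4 of 6 tested microglial markers and 2 of 7 astrocyte markers were called higher, and the same counts held in aged unimpaired against young. Of all tested probe sets, 3.88% were called higher and 5.88% lower in aged impaired, and 1.37% and 0.696% in aged unimpaired animals. The summed linear level of the microglial list ran from 1234 to 1585 in young, 1883 to 2389 in aged unimpaired and 1843 to 2875 in aged impaired animals, while its defining markers Cx3cr1 and Itgam stayed near the floor at 2.32 and 2.31. The summed astrocyte list ran from 29882 to 36754, 36588 to 44172 and 35810 to 45669. Of 7 tested CA3 pyramidal markers, Spock1 was called higher and Chgb and Dkk3 lower in aged impaired animals, and Nefl of the 6 neuronal markers was called lower. In aged unimpaired animals Slc17a7 of the neuronal list was called lower. Interneuron, oligodendrocyte, endothelial, dentate, CA1, choroid plexus, ependymal and blood markers, 25 tested genes in all, held 0 called by limma in either comparison with young, with 2 at an unadjusted p under 0.05 in aged impaired and 0 in aged unimpaired animals. The 5 CA1 markers reached means up to 9.39 and varied widely. Their median log2 difference from young was 0.37 in aged impaired and 0.21 in aged unimpaired animals. Their summed level ran from 349 to 2012 in young, 1035 to 1520 in aged unimpaired and 743 to 2541 in aged impaired animals. The part of these cell types in the ribosomal protein values was not tested, and in bulk tissue a change in the share of a cell type and a change in RNA per cell cannot be told apart.

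The array labelled young 9 stands between arrays of aged unimpaired animals in the deposited table, at a place where a replicate number of that group is absent, and it was kept as labelled. The microglial marker Aif1 ran from 6.40 to 7.14 over the 9 arrays labelled young, young 9 included. The aged unimpaired range of 7.28 to 7.91 lay above all of them. Aif1 is 1 of the 8 listed microglial markers. Without young 9 the median difference of the members was 0.07 in aged impaired and 0.06 in aged unimpaired against young, with 1 and 0 members called by limma, and 0.06 with 2 called for both aged groups averaged against young. The shares of all tested probe sets called were then 8.29%, 1.71% and 5.47%.

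In aged impaired against young animals, 4 of the 46 tested members passed the test, for which the adjusted p had to be 0.05 or less. Rpl12, Rpl5 and Rps24 rose and 1 probe set of Rpl7l1 fell. The share called was 8.70%, and 9.76% of all tested probe sets were called (3.88% higher and 5.88% lower). By direction, 6.52% of the members were called higher and 2.17% lower. With both directions together, the share called in this fit was no larger among ribosomal proteins than across the array. It depended on the scaling, with 10 of 46 called after array medians were centred, where 10.5% of all were called. After quantile normalization 21 of 46 were called, where 11.6% of all were called. The difference was above 0 for 43 of 46 members (93.5%), against 43.5% of all tested probe sets, with a median log2 difference of 0.09, a fold of 1.07, against -0.02. At an unadjusted p under 0.05 there were 20 higher members and 1 lower, 45.7% of the 46, against 26.3% of all tested probe sets in both directions. After group means were removed, the median correlation between 2 members over the animals was 0.79, against 0.05 among all tested probe sets. Counts of members, here and in the other comparisons, are therefore not counts of independent observations.

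Rpl12, a protein at the base of the stalk on which translation factors act, had log2 values from 11.13 to 11.39 in young animals with a median of 11.32. The aged unimpaired values ran from 11.39 to 11.60 with a median of 11.46, and the aged impaired values from 11.35 to 11.80 with a median of 11.45. All 6 aged unimpaired values and 5 of 8 aged impaired values exceeded those of all young animals. The mean was 11.29 ± 0.10 in young (SD, n = 9) and 11.48 ± 0.16 in aged impaired (n = 8), a log2 difference of 0.20 with an SE of 0.06 (limma, adjusted p = 0.0297). Rpl12 was the member with the lowest adjusted p in both comparisons with young.

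Rpl5 binds the 5S ribosomal RNA together with Rpl11, and the free particle can hold back the p53 ligase Mdm2. Its values ran from 12.35 to 12.55 in young (median 12.45), 12.37 to 12.67 in aged unimpaired (12.53) and 12.50 to 12.79 in aged impaired animals (12.60). In 5 of 8 aged impaired animals Rpl5 was above every young animal, and all 8 lay above the young mean. The log2 difference was 0.14 with an SE of 0.04 (limma, adjusted p = 0.0485). Its partner Rpl11 had values from 11.46 to 11.69 in young, median 11.60, and from 11.59 to 11.85 in aged impaired animals, median 11.64. Its difference of 0.11 with an SE of 0.04 did not pass (limma, adjusted p = 0.107).

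Rps24, a small subunit protein whose human gene is altered in some families with Diamond-Blackfan anaemia, lay at 12.49 to 12.75 in young (median 12.65), 12.61 to 12.84 in aged unimpaired (12.71) and 12.58 to 12.90 in aged impaired animals (12.76). The groups overlapped, although 5 of the 8 aged impaired values exceeded the whole young range. The log2 difference was 0.14 with an SE of 0.04 (limma, adjusted p = 0.0489). This probe set held a repeated value, with 4 animals, all of them aged, at exactly 12.6875. Such repeats can narrow the spread on which the test rests.

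Rpl7l1 is a paralogue of the large subunit protein Rpl7 and is not a standard part of the mature ribosome. The brighter of its probe sets ran from 8.42 to 8.61 in young (median 8.52), 8.33 to 8.45 in aged unimpaired (8.38) and 8.10 to 8.45 in aged impaired animals, of which 4 overlapped the young. It was below every young animal in the other 4 of 8 aged impaired and in 4 of 6 aged unimpaired animals. It fell by 0.14 on the log2 scale in aged impaired against young, with an SE of 0.04 (limma, adjusted p = 0.0419). The dimmer probe set, at a mean of 8.10, had a difference of -0.06 with an SE of 0.04 (limma, adjusted p = 0.337). Both probe sets held repeated values, with 6 of 23 animals at 1 identical value in each.

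**Figure D1:**
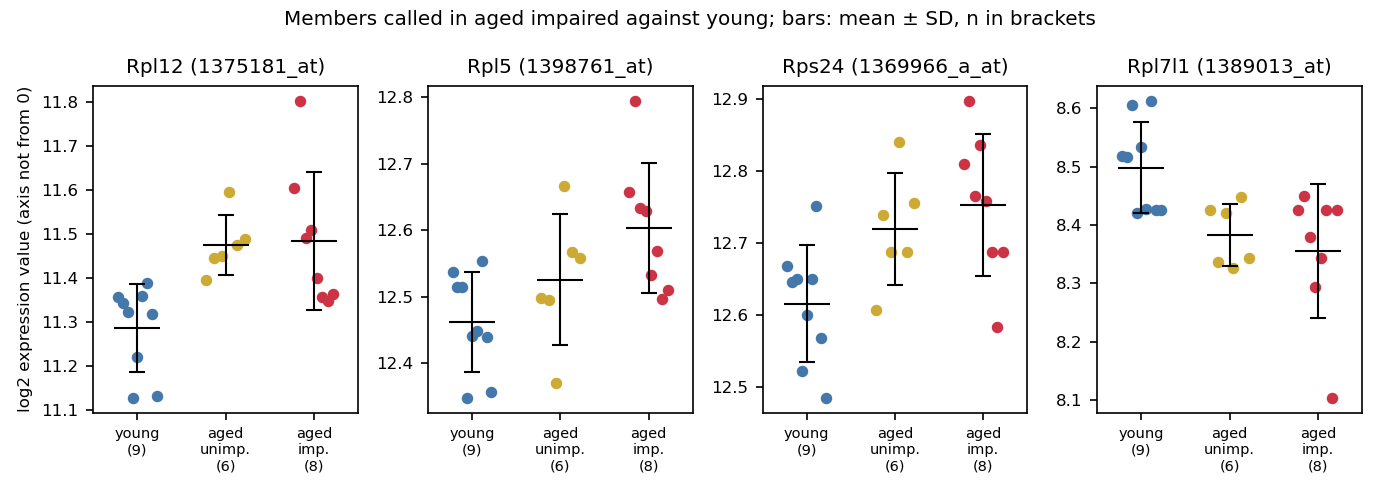
Log2 expression value (vertical axis, not from 0) of the 4 members called in aged impaired against young, with 1 point per animal and mean ± SD for young (n = 9), aged unimpaired (n = 6) and aged impaired (n = 8) animals. Rpl12 is above every young animal in all 6 aged unimpaired animals, while the aged impaired animals overlap the young in all 4 panels.

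The 4 calls lay close to the threshold and moved with single arrays. The count was 1 without aged impaired 2, 3 or 4 or young 3, 4, 5 or 9, 2 without aged impaired 1 or 5, aged unimpaired 2, 7 or 8 or young 2, 6 or 8, and 8 without aged impaired 7. Rpl12 kept its call in 20 of these 23 fits, Rpl7l1 in 14, Rpl5 in 7 and Rps24 in 5. The count was 0 when only the 2 groups compared were fitted, 0 with the gap between 2 control probe sets as a covariate, 10 (9 higher) with array medians centred and 21 (20 higher) after quantile normalization of the deposited values. The share of all tested probe sets called in these 4 fits was 7.73%, 6.4%, 10.5% and 11.6%. With single animals left out it ran from 6.94% to 12.3%.

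Beyond the calls, differences within each subunit were small and mostly of 1 sign. Of 14 tested small subunit probe sets 13 were above 0 in aged impaired against young, with a median difference of 0.08, and of 29 tested large subunit probe sets 29 were above 0, with a median of 0.10. Rpl22, a large subunit protein that also binds other RNAs, had 11.05 to 11.28 in young (median 11.14), 11.20 to 11.41 in aged unimpaired (11.28) and 11.13 to 11.64 in aged impaired animals (11.29). The groups overlapped, although 5 of 8 aged impaired values exceeded all young values. Its difference of 0.17 with an SE of 0.06 missed the threshold (limma, adjusted p = 0.0556).

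Rps6, the substrate of the S6 kinases downstream of mTORC1, ran from 11.98 to 12.21 in young with a median of 12.19. Its range was 12.16 to 12.37 with a median of 12.25 in aged unimpaired and 12.07 to 12.50 with a median of 12.29 in aged impaired animals. Rps6 and Rpl34 exceeded all young values in 6 of 8 aged impaired animals, the highest count among the members, whose median count was 3. How often such partial counts, here and for the other members, occur over all tested probe sets was not counted. The Rps6 difference was 0.14 with an SE of 0.05 (limma, adjusted p = 0.0832).

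Rplp0, which anchors the acidic stalk proteins, ran from 11.82 to 12.13 in young (median 12.03), 11.97 to 12.09 in aged unimpaired (12.02) and 11.87 to 12.20 in aged impaired animals (11.99). The groups overlapped throughout, and the aged impaired minus young difference was 0.02 with a 95% interval of -0.08 to 0.12. Rpsa, a small subunit protein also known as the laminin receptor precursor, had 3 tested probe sets with differences of 0.04, 0.06 and -0.02 (limma, adjusted p from 0.489 to 0.865). Rplp0 and the Rpsa probe sets were among the lowest members by difference, together with Rpl18 at 0.04, Rps9 at 0.05 and both probe sets of Rpl7l1.

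Genes with several tested probe sets gave a check within the family. For Rpl7, the dimmer probe set had the largest difference of any member, 0.28 with an SE of 0.11 (limma, adjusted p = 0.116), and lay at a mean of only 6.36 with 4 animals at 1 identical value. The brighter probe set, at 12.17, had a difference of 0.10 with an SE of 0.06. For Rpl3 the dimmer probe set, at 9.93, had 0.11 with an SE of 0.06 and the brighter, at 13.19, had 0.05 with an SE of 0.04. In both genes the dimmer probe set had the larger difference and the larger SE, and the difference between probe sets was not tested. Rps16 had the widest spread among bright members, 11.70 to 12.18 in young and 11.83 to 12.44 in aged impaired animals, and a difference of 0.16 with an SE of 0.08.

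In aged unimpaired against young animals, 0 of the 46 members were called by limma, against 2.06% of all tested probe sets (1.37% higher and 0.696% lower). At an unadjusted p under 0.05 there were 9 higher and 1 lower, 21.7% of the 46, against 16.8% of all tested probe sets in both directions. The lowest adjusted p was 0.112, for Rpl12. The difference was above 0 for 41 of 46 members (89.1%), against 49.0% of all tested probe sets, with a median of 0.07 (fold 1.05) against -0.002. This comparison uses the same young animals as the one before, so the 2 sets of differences are not independent of each other. The median was 0.07 for the small and 0.08 for the large subunit.

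Rpl12 had a difference of 0.19 with an SE of 0.06, and Rpl5 and Rps24 had 0.06 and 0.10 with SEs of 0.05. Rps15, a protein near the decoding site, had 0.17 with an SE of 0.06 (limma, adjusted p = 0.152). Its values ran from 11.64 to 11.91 in young (median 11.82) and from 11.86 to 12.06 in aged unimpaired animals (median 11.97). In 5 of 6 aged unimpaired animals Rps15 was above every young animal, and the same held for Rpl35, which lies by the peptide exit tunnel, with 0.14 and an SE of 0.05 (limma, adjusted p = 0.184). Rps6 had 0.12 with an SE of 0.06, Rplp0 0.03 with an SE of 0.05, and the Rpsa probe sets -0.03, 0.02 and -0.01. Rpl7l1 had -0.12 with an SE of 0.05 at its brighter and -0.04 with an SE of 0.04 at its dimmer probe set, against 0.27 and 0.07 for the 2 probe sets of Rpl7. The dim Rpl3 probe set had 0.11 and the bright one 0.02. Rpl12 was 1 of 46 members with all 6 aged unimpaired animals above every young animal, an outcome seen in 0.649% of all tested probe sets. The corresponding count in aged impaired animals was 0 of 46 members with all 8 animals above every young animal, against 0.594%. Shares of all tested probe sets with only part of a group above every young animal were not counted.

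In aged impaired against aged unimpaired animals, the direct comparison on learning, 0 of 46 members were called by limma and 0 reached an unadjusted p under 0.05. Of all tested probe sets 0.778% were called (0.676% higher and 0.102% lower) and 15.2% reached an unadjusted p under 0.05. The lowest adjusted p was 0.351. The median difference was 0.01 (fold 1.01), against -0.02 for all tested probe sets, and 31 of 46 members were above 0 (67.4%), against 40.8%. Rpl12 had 0.01 with a 95% interval of -0.12 to 0.14, Rpl5 0.08 with -0.03 to 0.18, Rps24 0.03 with -0.07 to 0.13, and Rpl7l1 -0.03 with -0.13 to 0.07 at its brighter probe set. Rplp0 had -0.01 with -0.12 to 0.10, Rps6 0.03 with -0.10 to 0.15, and Rpsa 0.07 with -0.05 to 0.20 at its brightest probe set. All 46 intervals held 0, which leaves room for differences of the size seen against young in several members. The lowest differences were those of Rpl35, at -0.03, and of the 2 Rpl7l1 probe sets.

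The pseudogene Rpl37-ps2 had the largest difference between the aged groups, 0.25 with a 95% interval of -0.01 to 0.52. Its values were dim and spread, from 5.63 to 6.60 in young (median 6.30), 5.63 to 6.31 in aged unimpaired (6.22) and 6.20 to 6.68 in aged impaired animals (6.32). The groups overlapped, and its differences from young were -0.13 in aged unimpaired and 0.13 in aged impaired animals, each with an SE of 0.12 or 0.11. Transcripts of a parent gene and its pseudogene can hybridise to the same probes, so the source of this signal is uncertain.

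With both aged groups averaged against young, 2 of 46 members were called, against 6.9% of all tested probe sets (3.34% higher and 3.56% lower). Rpl12 rose by 0.19 with an SE of 0.05 (limma, adjusted p = 0.023) and Rpl7l1 fell by 0.13 at its brighter probe set with an SE of 0.04 (limma, adjusted p = 0.0470). The median difference was 0.08, against -0.01 for all tested probe sets, and 42 of 46 were above 0 (91.3%), against 45.8%. Rps15 had 0.16 and Rpl7 0.28 at its dimmer probe set (limma, adjusted p = 0.0547 and 0.096), while Rplp0 had 0.03, Rps6 0.13, Rpl3 0.03 at its bright probe set and Rpsa 0.004 at its brightest. The call of Rpl12 held with each animal left out, and that of Rpl7l1 held in 10 of 23 fits. The count of calls was 1 without aged impaired 3, 4 or 5, aged unimpaired 4, 6 or 8 or young 2, 3 or 5, 4 without aged impaired 6 or aged unimpaired 1, and 7 without aged impaired 7. With single animals left out, 4.2% to 8.77% of all tested probe sets were called.

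**Figure D2:**
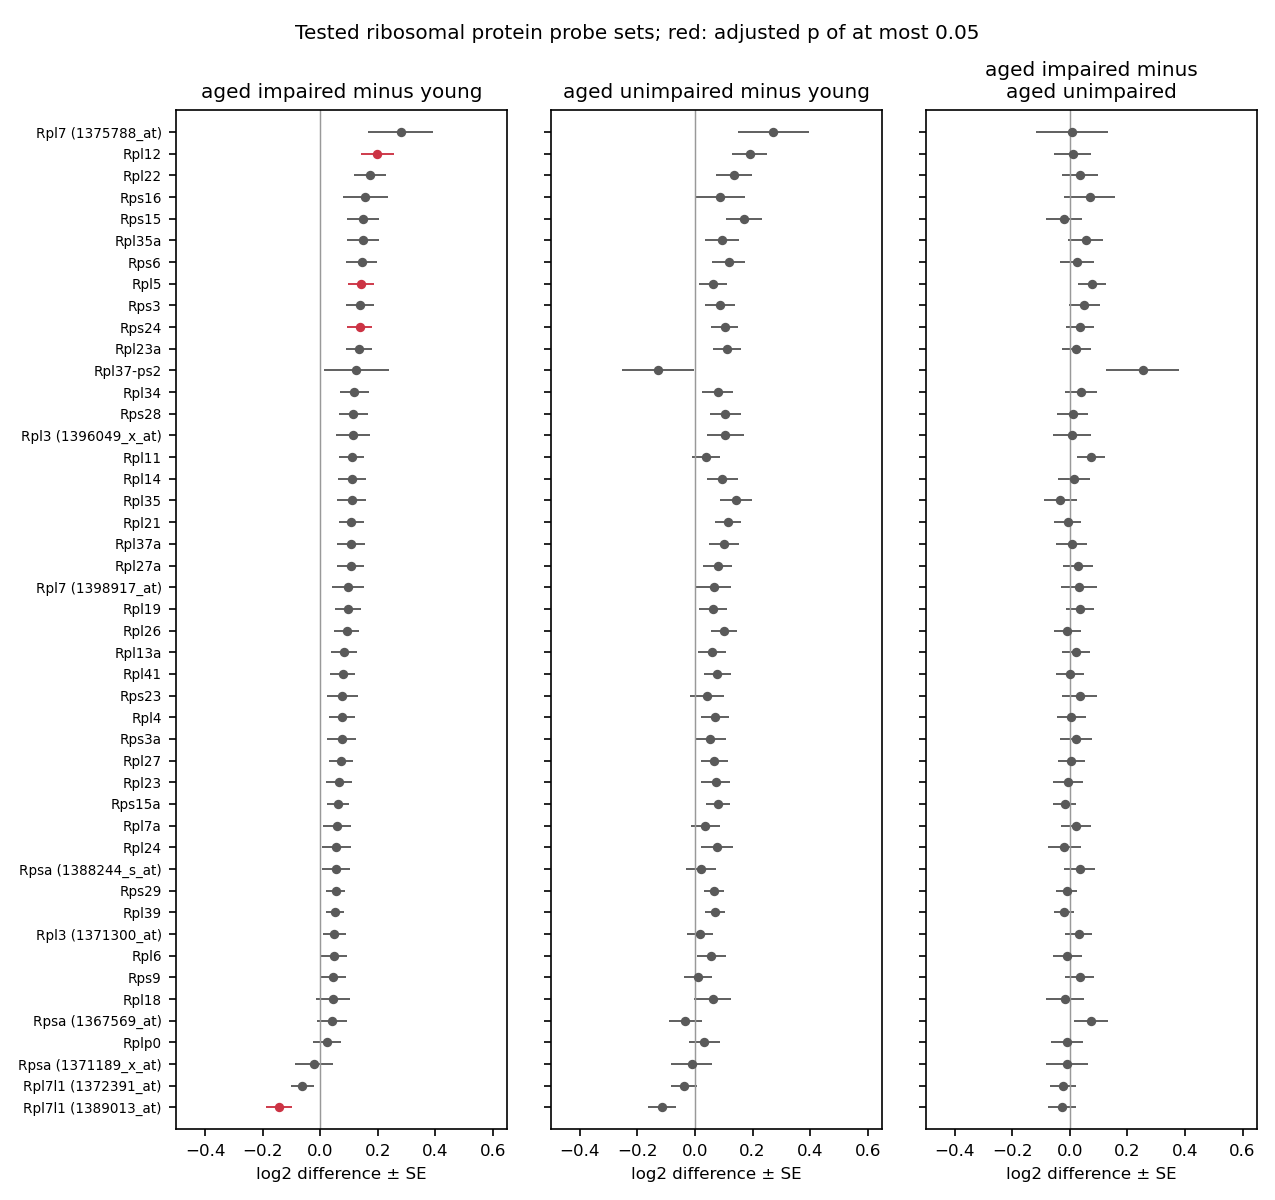
Log2 difference ± SE (horizontal axis) of the 46 tested ribosomal protein probe sets in 3 comparisons, ordered by the difference in aged impaired against young, with members called at an adjusted p of at most 0.05 in red. In aged impaired against young 43 of 46 points lie above 0 and 4 are red, and between the aged groups no point is red.

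**Figure D3:**
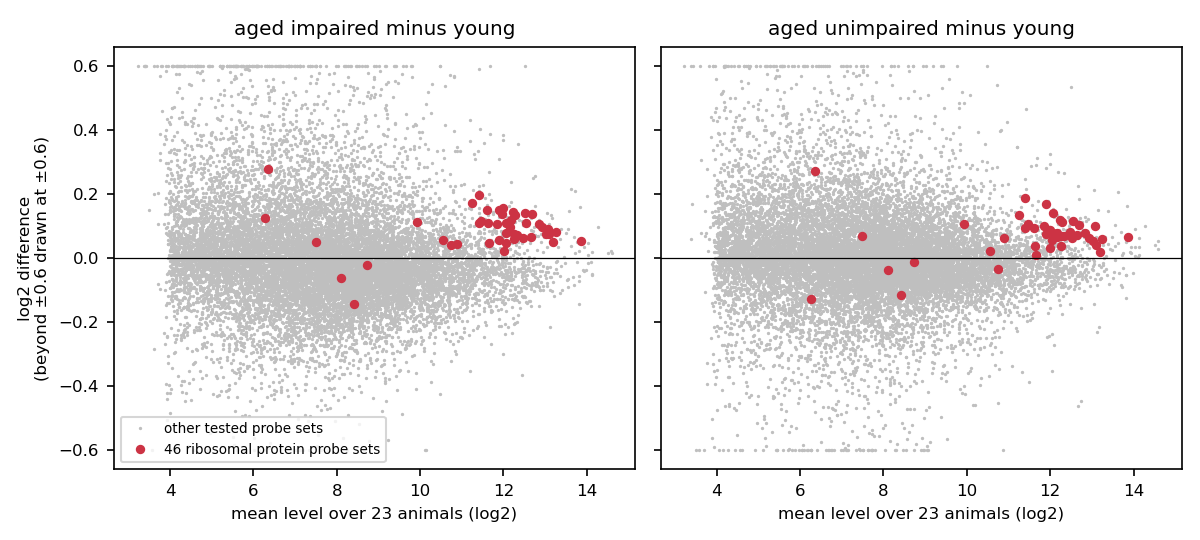
Log2 difference from young (vertical axis, values beyond 0.6 drawn at the edge) against mean level over 23 animals (horizontal axis, log2), with 46 ribosomal protein probe sets in red and all other tested probe sets in grey. Most ribosomal protein points lie at a level of at least 11 and just above 0 in both comparisons.

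The 790 other tested probe sets with a mean level of at least 11 had a median difference of -0.04 in aged impaired and -0.02 in aged unimpaired against young, with 30.9% and 37.8% above 0. A further 34 tested probe sets carried several gene symbols with at least 1 of a ribosomal protein. These, which were no members, had medians of 0.08 and 0.07, with 33 of 34 above 0 in both comparisons. In aged impaired against young 4 of them were called higher (11.8%), against 3.88% of all tested probe sets. They may share transcripts with the members.

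Within a group, most members deviated together from animal to animal. Per animal, the median deviation of the 46 members from their means over all animals was -0.05 ± 0.08 in young (SD, n = 9), 0.02 ± 0.05 in aged unimpaired (n = 6) and 0.04 ± 0.11 in aged impaired animals (n = 8). The ranges overlapped, from -0.17 to 0.02 in young, -0.02 to 0.12 in aged unimpaired and -0.10 to 0.23 in aged impaired animals. Aged impaired 2 and 1 stood highest at 0.23 and 0.16, with 44 and 45 of 46 members above their mean, and aged unimpaired 6 followed at 0.12 with 43. Young 9 and young 4 stood lowest, both at -0.17 with 2 of 46 members above their mean. Aged impaired 7 lay at -0.10 with 4 members above their mean, within the range of the young.

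**Figure D4:**
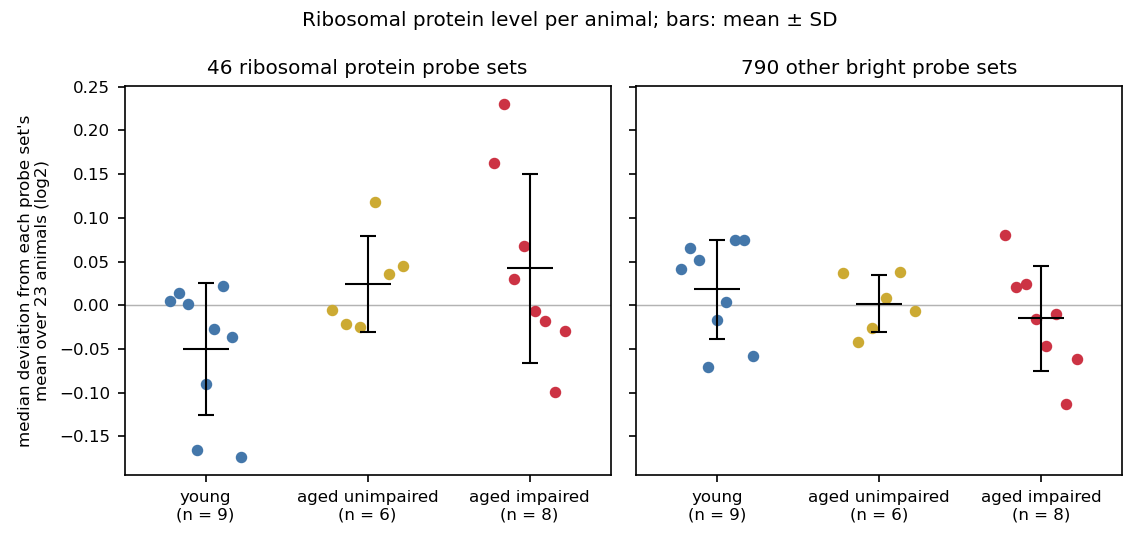
Median log2 deviation per animal from each probe set's mean over 23 animals (vertical axis), for the 46 ribosomal protein probe sets (left) and 790 other bright probe sets (right), with mean ± SD of young (n = 9), aged unimpaired (n = 6) and aged impaired (n = 8) animals. The ribosomal protein values of the groups overlap, from -0.17 to 0.02 in young and from -0.10 to 0.23 in aged impaired animals.

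**Figure D5:**
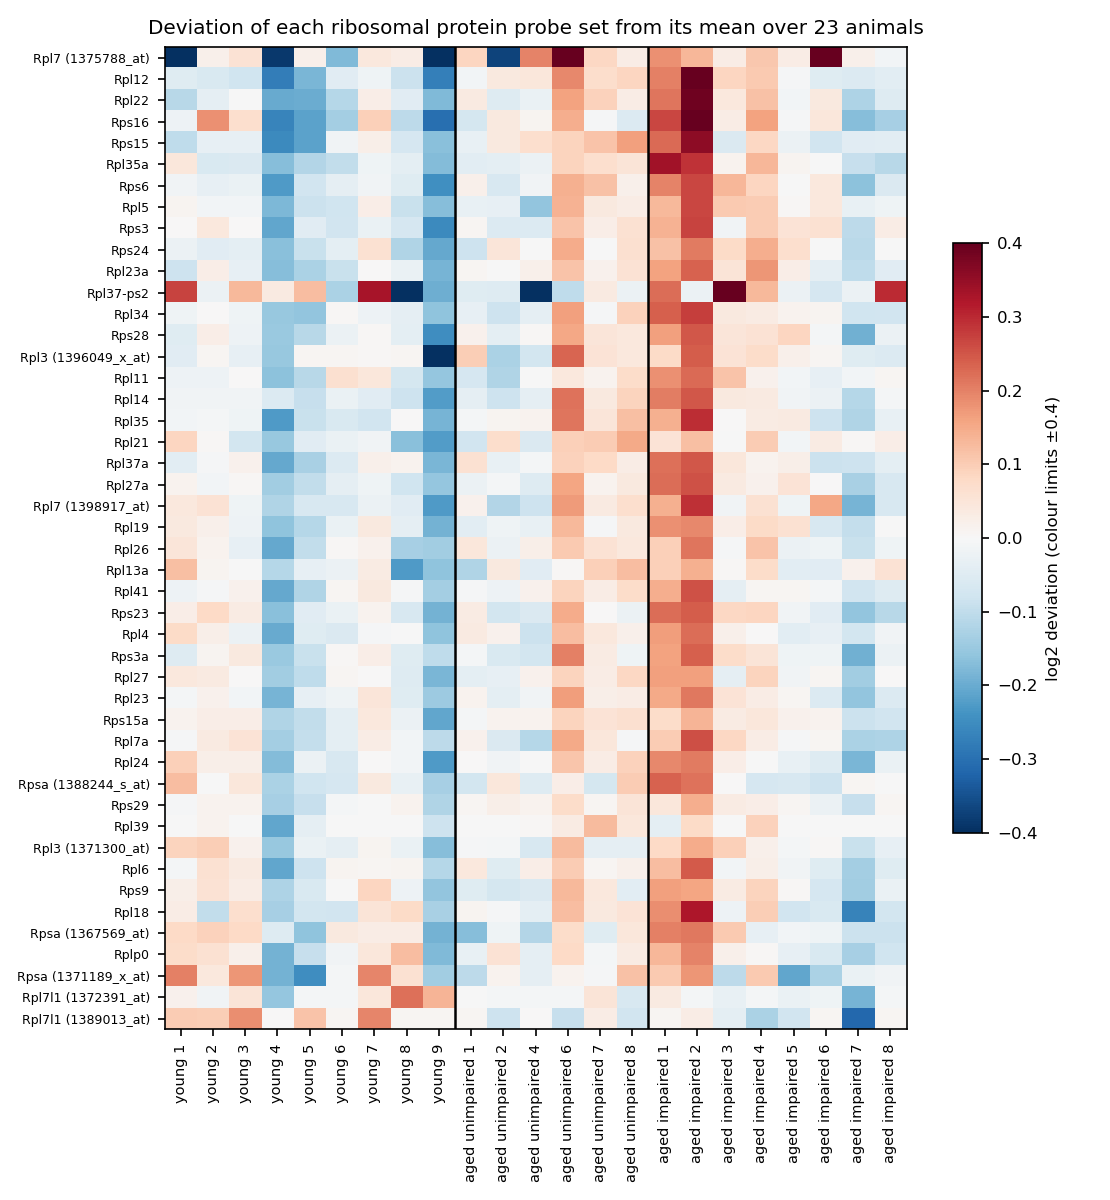
Log2 deviation (colour, limits at 0.4) of each tested ribosomal protein probe set from its mean over 23 animals, with animals in columns by group. Aged impaired 1 and 2 and aged unimpaired 6 are high in nearly all members, and young 4 and 9 are low in nearly all.

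Aged impaired 1 and 2 were also left out together, a choice made after their high values were seen. Lower member values without them follow from that choice. The lowest young animals, young 4 and 9, were not left out together. Without aged impaired 1 and 2 the mean of the remaining 6 aged impaired animals was -0.01 ± 0.06. The median difference from young was then 0.05, against -0.03 for all tested probe sets, with 37 of 46 members above 0. Only the fall of Rpl7l1 was called, against 10.7% of all tested probe sets, and Rpl12 had 0.13 (limma, adjusted p = 0.0817). Between the aged groups the median difference was then -0.03, against -0.04 for all tested probe sets, with 7 of 46 members above 0 in place of 31. Aged impaired 1 and 2 also had the smallest gap between the control probe sets named GAPDH 5' and GAPDH M, 2.02 and 2.03 on the log2 scale. Aged unimpaired 6, the next highest animal by its members, had a large gap of 2.39. Young 4 and 9, the lowest animals, had gaps of 2.14 and 2.25, and young 3 had 2.08 with a median deviation of 0.002. The gap averaged 2.22 ± 0.10 in young, 2.28 ± 0.09 in aged unimpaired and 2.14 ± 0.09 in aged impaired animals. With the gap as a covariate, the median difference was 0.08 in aged impaired against young and -0.02 in aged impaired against aged unimpaired, with 13 of 46 members above 0 in the latter. Over all tested probe sets these medians were -0.02 and -0.03. The labels of these control probe sets are uncertain, and the part of RNA quality in the animal differences was not tested. The other bright probe sets deviated by 0.08 and 0.02 in aged impaired 1 and 2, and by -0.07 and -0.06 in young 4 and 9.

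After each group's mean was removed, the median correlation between 2 members over 23 animals was 0.79 (1035 pairs, 99.2% of them above 0). It was 0.81 between small and large subunit probe sets, 0.36 among the 790 other bright probe sets and 0.05 among all tested probe sets that varied. The members share arrays and normalization, and the correlations are a description of these arrays. Each member's correlation with the median of the others had a median of 0.90 and was at least 0.8 for 36 of 46. Rpl23 had 0.95, Rpl12 0.95, Rpl19 0.95, Rps6 0.94, Rplp0 0.91, Rpl5 0.90 and Rps24 0.86. The lowest were Rpl37-ps2 at 0.17, Rpl7l1 at 0.32 for its dimmer and 0.50 for its brighter probe set, and the dim Rpl7 probe set at 0.44. These 4 probe sets were among the dim members and held values repeated over several animals.

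Genes that make, regulate or rescue ribosomes had small median differences. Of all tested probe sets 3.88% were called higher and 5.88% lower in aged impaired against young, and 26.3% had an unadjusted p under 0.05. In aged unimpaired against young 2.06% were called and 16.8% had an unadjusted p under 0.05. Between the aged groups these shares were 0.778% and 15.2%. No list was tested against these shares. Of 46 tested genes of ribosome biogenesis and RNA polymerase I, limma called 0 higher and 3 lower in aged impaired against young (1 higher and 6 lower at an unadjusted p under 0.05), with a median difference of -0.04. Bop1, which acts in large subunit processing, ran from 7.49 to 8.03 in young (median 7.78) and from 7.33 to 7.59 in aged impaired animals (median 7.51). It fell by 0.27 with an SE of 0.06 (limma, adjusted p = 0.0115), and the groups overlapped at their edges. The ribosomal RNA methyltransferase Nop2 fell by 0.12 and the nucleolar phosphoprotein Nolc1 by 0.14. In aged unimpaired animals only Emg1, a small subunit assembly methyltransferase, was called in this list, with a fall of 0.53 (limma, adjusted p = 0.0485), and the median was -0.01.

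Of 29 tested genes of the mTORC1 and S6 kinase pathway, limma called 0 higher and 1 lower in aged impaired against young (1 higher and 8 lower at an unadjusted p under 0.05), with a median of -0.06. The gene was Pdpk1, the kinase that activates Akt and S6 kinase, which fell by 0.11. Mtor itself had a difference of -0.07, Larp1 -0.12 and Rps6kb1 0.07, and none of these passed (limma, adjusted p = 0.162, 0.140 and 0.607). In aged unimpaired animals limma called 0 of 29, with 1 higher and 3 lower at an unadjusted p under 0.05 and a median of 0.001.

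Of 14 tested terminal oligopyrimidine messenger RNAs outside the ribosomal proteins, Vim was called higher and Cct4 lower, with a median of 0.04 in aged impaired and 0.03 in aged unimpaired against young. Vim, an intermediate filament protein also made by reactive astrocytes, rose by 0.82 with an SE of 0.13 (limma, adjusted p = 0.00075). The elongation factors Eef1a1 and Eef2 had differences of 0.05 and -0.06 in aged impaired against young (limma, adjusted p = 0.347 and 0.386). In aged unimpaired animals limma called 0 of 14, with 2 higher and 1 lower at an unadjusted p under 0.05.

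Of 12 tested genes of ribosome rescue, quality control and the p53 link, Mdm4, a partner of Mdm2 in holding back p53, rose by 0.45 with an SE of 0.08, and Hbs1l, which helps free stalled ribosomes, fell by 0.27 with an SE of 0.07 in aged impaired against young. Mdm2 and the p53 target Cdkn1a had -0.08 and 0.07 and were not called. In aged unimpaired animals limma called 0 of 12, with 1 higher and 1 lower at an unadjusted p under 0.05. Rack1, a ribosomal protein whose name lies outside the rule, had -0.02 with an SE of 0.06. Across the 101 tested genes of these 5 lists limma called 0 between the 2 aged groups, with 5 higher and 7 lower at an unadjusted p under 0.05.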

How the data were processed

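Values were the authors' deposited log2 expression values, made with GCRMA per the submitters' processing notes; the GCRMA version is not given in the sources used here. Of 31099 probe sets on each of 23 arrays, 57 were controls. Arrays have no read depth, and their number limits the precision. Platform symbols were used, 20826 probe sets having 1 symbol, 436 several and 9780 none, and 48 of 50 member genes matched RefSeq by identifier. Probe sets at 4 or more on at least 6 arrays (14647) were fitted with limma 3.58.1 (R 4.3.3, statmod 1.5.0), with 1 mean per group in 1 fit, 20 residual and 2.35 prior degrees of freedom, lmFit and eBayes, two-sided, and Benjamini-Hochberg over all tested probe sets. The method was tested on simulated data. The p-values measure the spread between animals. Exact repeats of a value within a probe set occurred in 22 of 46 tested members and 65.4% of all tested probe sets, which can narrow the spread. The members and gene lists were chosen with earlier results of these data known. Named were called members, the 3 highest and lowest differences, paralogues, Rplp0, Rpsa, Rps6, the brightest, dimmest and widest-spread members, and genes with several probe sets; Rpl11, Rpl34, Rpl18, Rps9, Rpl23 and Rpl19 were named after their values were seen. Alternatives varied the filter, scaling, weights, prior, block, covariate and arrays. Pseudogenes, paralogues and probe sets ending in _x_at or _s_at can share signal. RefSeq promoters of build GRCr8 came from a given table; protein sequences were not used here.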

Additional observations from a re-analysis of the deposited data

Results flagged for a closer look

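In 66 group tests of 21 named probe sets and of the members' median deviation per animal, 6 values, from 5 animals, stood apart from their group. The cutoff has a nominal rate of about 1 in 20 groups. Some of these probe sets were chosen for wide spread and several held repeated values, so that rate need not hold here. Aged impaired 7 was low at both probe sets of Rpl7l1, with 8.10 at the brighter against 8.29 for the next animal and 7.92 at the dimmer against 8.07. Aged unimpaired 4 was low at Rpl37-ps2, 5.63 against 6.17, a value that young 8 held exactly as well. For Rpl3, aged unimpaired 6 was high at the brighter probe set, 13.32 against 13.19. At the dimmer one young 9 was low at 9.52 against 9.78, and aged impaired 2 was high at 10.17, above all others of its group. Without aged impaired 7 the Rpl7l1 difference from young at the brighter probe set was -0.11, from -0.14 with it.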

How the results depend on the processing

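All calls in aged impaired against young (4 of 46) had adjusted p between 0.0297 and 0.0489. They numbered 0 with no filter, with only the groups compared, with the control gap as covariate and with the replicate number as a block, 10 with array medians centred, 21 with quantile normalization, 1 without aged impaired 1 and 2 (chosen after seeing the data), and 1 to 8 with single animals left out. Where the count was 0, the 4 had adjusted p from 0.0564 to 0.153. Of all tested probe sets 2.47% were called with no filter and 5.94% with the block. Under the replicate block the median difference was 0.07, and the block also gave 0 calls for the averaged aged groups. Against young, aged unimpaired animals had 0 calls, but 1 with quantile normalization, 2 with array weights, 2 without aged impaired 1 and 2, and 0 to 1 with single animals left out (1 without aged impaired 2). In the first 3 of these fits 2.89%, 4.59% and 2.61% of all tested probe sets were called. The averaged aged groups had 2, but 0 with no filter, 11 centred, 21 quantile, 6 with array weights, 6 with a trend and robust prior, and 1 to 7 with single animals left out. In the first 5 of these fits 1.64%, 7.69%, 8.81%, 10% and 7.31% of all tested probe sets were called. Between the aged groups it was 0 throughout. Centring turned the split of all calls in aged impaired against young from 568 higher and 861 lower to 768 and 768. Median differences from young stayed above 0 under each alternative, from 0.05 to 0.11 for aged impaired; that between the aged groups changed sign with the control gap (-0.02), without aged impaired 1 and 2 (-0.03) and without aged impaired 2 (-0.01). For the 16 genes named, 2705 of 2835 values kept their side of the threshold, 83 lost a call and 47 gained one. Calls in the main fit were only the 4 in aged impaired and the 2 in the averaged aged groups. Most of the 2835 values therefore had no call to lose, and their number does not measure how stable the calls were. The sign changed in 86, none of them called in either fit, such as Rpl12 between the aged groups, which ran from -0.04 to 0.03 with single animals left out. The causes were not tested. No pairing by replicate number was seen: same-numbered animals of different groups correlated between -0.14 and 0.13 (20 pairs, 2 over 0.1). The other pairs across groups ran from -0.23 to 0.19 (154 pairs). These correlations cannot show that same-numbered animals were not handled together. With 6 to 9 animals a group the called differences of aged impaired from young were 0.14 to 0.20 in size, and others up to 0.28 were not called.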
